A study of Schizosaccharomyces pombe with 10 samples.

Results

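The 300 most abundant long non-coding RNAs of the fission yeast Schizosaccharomyces pombe were followed in cells that overexpressed bag101, a gene for a co-chaperone that binds Hsp70 through its BAG domain, and in cells that carried a vector. They are the features with an SPNCRNA identifier, the PomBase prefix for non-coding RNA, that had the highest read counts summed over all 10 libraries, 300 of 1540 such features and of 7017 features counted. The controls were wild type with vector and the others wild type overexpressing bag101, 5 libraries each, from cultures grown in EMM2, a defined minimal medium, at 29 °C, with total RNA extracted by hot phenol. The sources used here do not give the promoter that drives bag101, the time of induction or further strain details. The comparison asks which non-coding transcripts differ when the cell holds more of this co-chaperone.

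Long non-coding RNAs of fission yeast are mostly made by RNA polymerase II between or antisense to protein-coding genes. Many are kept low by the nuclear exosome, which is guided by the MTREC complex and by the RNA-binding protein Mmi1, and some by RNA interference and heterochromatin. For several of them the act of transcription itself is known to repress or open a neighbouring promoter, as upstream of tgp1 and fbp1.

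Gene reads per library ranged from 5542378 to 11844946 in the controls and from 10228858 to 10877283 in the overexpression group. Log2 levels correlated at 0.994 to 0.997 between controls and at 0.986 to 0.995 between overexpression libraries, across genes, which are not independent replicates. Overexpression replicate 1 stood apart: its pairs gave 0.986 to 0.991, and the other pairs of that group 0.994 to 0.995. No library had a read for bag101 itself (SPBC16G5.11c), which was listed at 0 in all 10, so its level could not check the labels. Reads that fell on more than 1 feature and were therefore not counted were 10.9% to 13.1% of listed reads for controls and 13.7% to 16.3% for overexpression libraries. Of 346 protein-coding genes wholly covered by features on the opposite strand only, 315 were at 0 in every library, against 49 of 2180 that overlap nothing. Such a loss arises when reads are counted without regard to strand. The count of a lncRNA therefore comes from the stretch it shares with no other feature, and sense and antisense reads there cannot be told apart. In bulk cultures, fewer cells that make an RNA and less RNA per cell cannot be told apart either.

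The label of the set was checked against the reference annotation. Of the 300, 294 matched it, and 289 of these were classed as lncRNA, 3 as snoRNA and 2 as other ncRNA. Ter1, the telomerase RNA, rrk1, the RNA of RNase P, and the small nucleolar RNAs snoR61 and snoZ carry SPNCRNA identifiers and are among the 300, although they are structured RNAs of known function. The annotation classes ter1, rrk1 and snoZ as lncRNA. A total of 103 of the 300 overlapped no other counted feature, 133 overlapped features on the opposite strand only, 24 on the same strand only and 34 on both. Other features covered over 50% of the length of 85. A further 676 of the 1540 SPNCRNA features had no reads in any library.

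Abundance was spread very unevenly. Summed counts had a median of 470.5 reads and ran from 142 to 49113. The boundary of the set fell at the tied SPNCRNA.341 and SPNCRNA.869, with 142 reads each, and the next below it were SPNCRNA.1268 with 139 and SPNCRNA.545 with 138. Counts grow with the length of an RNA, so this is an order of reads and not of molecules. The 300 held 94.3% to 94.8% of all SPNCRNA reads in controls and 95.7% to 96.6% in overexpression libraries.

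Their share of gene reads was 0.347%, 0.330%, 0.334%, 0.355% and 0.342% in control replicates 1 to 5, and 0.394%, 0.402%, 0.398%, 0.372% and 0.377% in overexpression replicates 1 to 5. The groups did not overlap. Rse1 alone took 18.4% to 20.5% of the reads of the set in controls and 6.52% to 7.53% in overexpression libraries. Without it the shares were 0.263% to 0.286% and 0.345% to 0.376%. These shares describe a set chosen by abundance in the same libraries and carry no test.

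**Figure D1:**
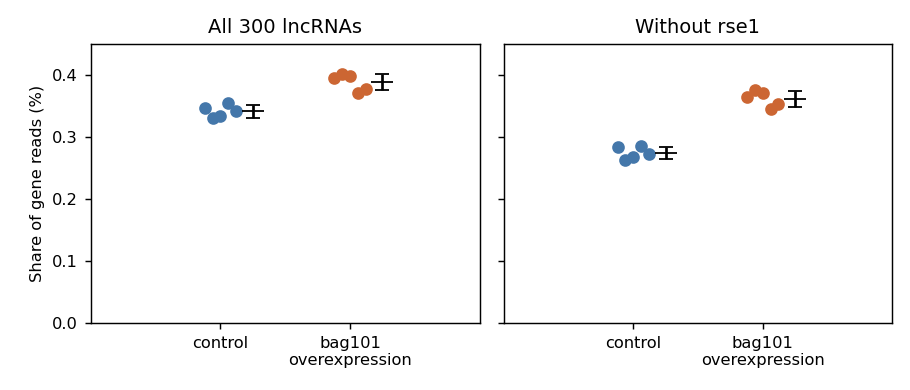
Share of gene reads (%) taken by the 300 lncRNAs in each library (points, 5 per group), with and without rse1; the black bar is the mean and SD of the group. With rse1 left out, controls lie between 0.263% and 0.286% and overexpression libraries between 0.345% and 0.376%.

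Most of the set changed, in both directions. All 300 passed the filter on low counts, and in edgeR's quasi-likelihood test with Benjamini-Hochberg adjustment over all 4681 features tested, 141 rose and 86 fell at an adjusted p below 0.05, while 73 did not pass. Over all features tested, 83.6% were called, 40.4% higher and 43.2% lower, against 75.7%, 47.0% and 28.7% of the 300. Rises of more than 2-fold numbered 107 and falls of more than 2-fold 59, where 18.6% and 15.6% of all features passed these rules. The levels of the groups did not overlap in 120 lncRNAs that were higher and 68 that were lower, where 74.6% of all features tested did not overlap in either direction. The median log2 fold change was 0.27, with quartiles at -0.61 and 1.43, beside a median of -0.03 over all features.

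The balance of directions depended on scaling and on how the set was chosen. Higher calls were 62.1% of calls in the set under TMM, 63.2% under RLE, 56.2% under upper-quartile scaling and 49.4% by library totals, where 115 rose and 118 fell. The median of the set stood 0.30 above that of all features under each of these 4 scalings. A change of scaling shifts all features nearly alike, so this gap could hardly differ between them and is no separate support. Had the 300 been taken from the controls alone, 109 would have risen and 102 fallen, with a median of 0.012. Taken from the overexpression libraries alone, 158 would have risen and 58 fallen, with a median of 0.57. Of the 300 as chosen here, 239 are in both of these choices, 29 only in that from the controls and 32 only in that from the overexpression libraries.

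**Figure D2:**
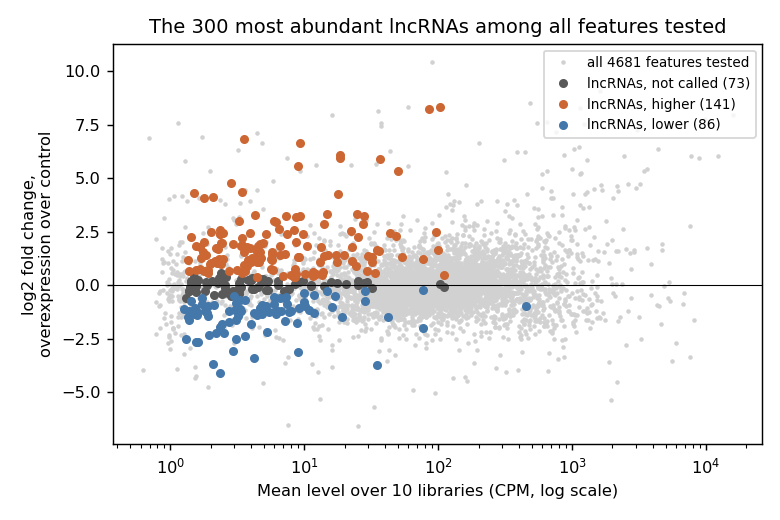
Log2 fold change against the mean level over 10 libraries (CPM, log scale) for all 4681 features tested (grey) and the 300 lncRNAs (141 higher in orange, 86 lower in blue, 73 not called in dark grey). The lncRNAs lie mostly at low levels, and their rises reach 8.32 and their falls -4.11 on the log2 scale.

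**Figure D3:**
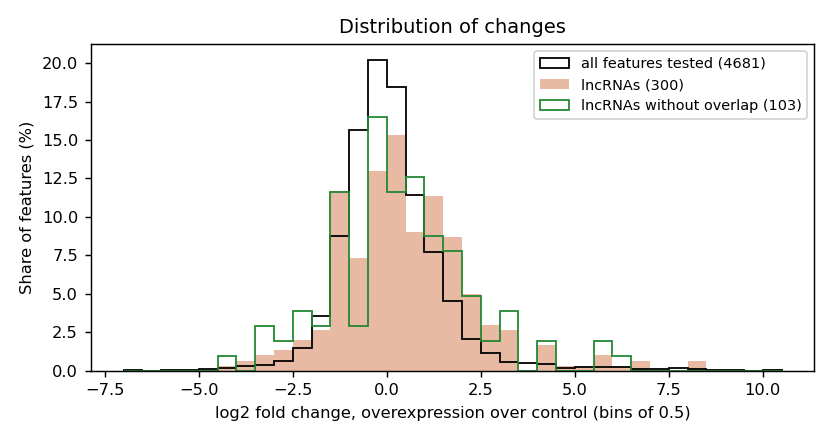
Share of features (%) by log2 fold change in bins of 0.5 for all 4681 features tested, the 300 lncRNAs and the 103 of them that overlap no other counted feature. The lncRNAs are spread more widely, with medians of 0.27 for the 300 and 0.37 for the 103 against -0.03 for all features.

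Calls were also counted by depth and overlap. Of the 100 with the most reads, 59 rose and 23 fell, beside 40.4% higher and 43.2% lower of all features tested. Of the middle 100, 44 rose and 32 fell, and of the last 100, 38 rose and 31 fell. The 103 without overlap had 51 higher and 31 lower, those overlapped on the opposite strand 63 and 34, on both strands 18 and 10, and on the same strand 6 and 9. These counts are descriptions and the differences between the classes were not tested. Ranks rest on reads summed over both groups, so RNAs abundant in only 1 group can stand among the first 100. SPNCRNA.1480, for example, had 37 reads in the controls and 9655 under overexpression. Replicate spread was larger than for coding genes: the median coefficient of variation was 16.6% in controls and 19.5% in overexpression libraries, beside 5.67% and 9.36% for protein-coding genes, whose levels were also higher, with a median of 70.8 CPM against 4.49 CPM. Overexpression replicate 1 was the lowest of its group in 100 of the 300 and replicate 2 the highest in 113. Without replicate 1, 144 rose and 87 fell.

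The RNAs with known roles moved differently from each other. Ter1, the RNA template of telomerase (SPNCRNA.214), stood at 18.8, 19.7, 17.4, 19.0 and 17.7 CPM in control replicates 1 to 5 and at 44.0, 50.2, 42.8, 45.8 and 45.3 CPM in overexpression replicates 1 to 5. Every overexpression library was above every control. Its log2 fold change was 1.31 ± 0.07 (SE, adjusted p = 1.01e-10, edgeR).

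Sme2 (SPNCRNA.103), the meiRNA that binds Mei2 and draws Mmi1 away from meiotic transcripts, was at 1.35, 0.966, 1.14, 2.62 and 0.632 CPM in controls and 7.95, 15.4, 15.7, 16.6 and 10.4 CPM under overexpression. The groups did not overlap, and the log2 fold change was 3.23 ± 0.30 (SE, adjusted p = 1.67e-07, edgeR). Other features cover 44.8% of its length.

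Nam1 and nam3 belong to the RNAs named for their association with Mmi1, and they went opposite ways. Nam3 (SPNCRNA.1696) fell 8.70-fold, from 13.9 to 19.8 CPM across controls down to between 0.785 and 3.07 CPM. Nam1 (SPNCRNA.1459) rose 1.51-fold, from 27.0 ± 3.72 to 40.6 ± 7.70 CPM (0.58 ± 0.13 on the log2 scale, edgeR adjusted p = 0.00101), a call that missed the threshold when libraries were scaled by totals. Its levels overlapped between the groups, since overexpression replicate 1 was at 27.5 CPM and the controls reached 32.0 CPM. Byr2, a kinase gene of the mating pathway that lies downstream of nam1 on the same strand, rose by 1.27 ± 0.06 (SE) on the log2 scale.

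Rrk1, snoR61 and snoZ, the structured RNAs of tRNA and rRNA maturation, did not share 1 direction. Rrk1 (SPNCRNA.128) rose 1.62-fold to 10.6 ± 2.65 CPM and snoR61 (SPNCRNA.445) 1.46-fold to 10.3 ± 2.17 CPM (SD, n = 5), with adjusted p of 0.00342 and 0.00331 (edgeR). Neither passed with library totals. SnoZ (SPNCRNA.659) fell from 2.81 ± 0.462 to 1.02 ± 0.212 CPM (adjusted p = 1.32e-05, edgeR), and other features cover 63.2% of it. The annotation classes snoZ as lncRNA. Of the RNAs other than snoR61 that it classes as snoRNA, SPNCRNA.1650 was 3.75-fold higher and SPNCRNA.1483 1.40-fold lower (adjusted p = 0.0486, edgeR). Both were named outside the naming rule.

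Of the meu RNAs, named for meiotic upregulation, meu3 (SPNCRNA.07) rose from 2.42 ± 0.674 to 4.67 ± 0.743 CPM (SD, n = 5 each), without overlap between the groups. Meu19 (SPNCRNA.29) was at 1.30-fold its control level, with overlap. It was called at an adjusted p of 0.0233 (edgeR), and the call was lost with upper-quartile factors, with library totals, without control replicate 1 (adjusted p = 0.0701) and without control replicate 3 (adjusted p = 0.0558). Omt3 (SPNCRNA.130), the second most abundant of the set, was at 113 ± 6.91 CPM in controls and 106 ± 10.6 CPM under overexpression and did not pass (adjusted p = 0.227, edgeR). It was called lower with upper-quartile factors, at -0.28 on the log2 scale (adjusted p = 0.0023), and with library totals, at -0.44 (adjusted p = 1.01e-04).

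The RNA with the most reads fell. Rse1 (SPNCRNA.111), which starts back to back with ste11, the transcription factor gene of mating and meiosis, was at 539, 602, 594, 612 and 630 CPM in control replicates 1 to 5. The overexpression libraries held 317, 304, 302.5, 315 and 277 CPM. No overexpression library reached the lowest control, and the log2 fold change was -0.97 ± 0.06 (SE, adjusted p = 3.30e-10, edgeR). Ste11 itself was at 79.0 ± 4.16 and 96.9 ± 22.4 CPM (SD, n = 5 each), and its levels overlapped between the groups (log2 fold change 0.29 ± 0.12, adjusted p = 0.0347, edgeR).

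Among the 10 with the most reads, 5 differed from the controls by more than 2-fold, and rse1 fell 1.96-fold. Of all features tested, 18.6% were called higher and 15.6% lower by more than 2-fold. SPNCRNA.304 rose from 48.3 ± 2.47 to 152 ± 7.67 CPM and SPNCRNA.844, which lies beside the kinase gene cdr1, from 29.4 ± 2.10 to 164 ± 31.4 CPM (SD, n = 5 each). SPNCRNA.1480 and SPNCRNA.1611 rose most and are described with their neighbours, as is SPNCRNA.1234, which fell. SPNCRNA.1480 and SPNCRNA.1611 had only 37 and 33 reads in all controls together. They owe their rank to 9655 and 8033 reads in the overexpression libraries. SPNCRNA.388 rose 1.38-fold and SPNCRNA.1443 fell 1.18-fold, each with overlap between the groups, and the first call was lost with library totals (adjusted p = 0.372, edgeR). SPNCRNA.1626, which overlaps the gene of the transcription factor mbx2 on the opposite strand, did not pass. It was at 102 ± 21.8 against 106 ± 11.6 CPM, with a log2 fold change of 0.04 ± 0.13 (SE).

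Several of the largest rises lay beside genes that themselves rose strongly. SPNCRNA.1480, which precedes lsd90 on the same strand, was at 0.449, 0.644, 0.534, 0.824 and 0.711 CPM in controls and reached 234, 168, 241, 226 and 160 CPM under overexpression. Its log2 fold change was 8.32 ± 0.20 and that of lsd90 8.42 ± 0.15 (SE). Both were far above every control in all 5 overexpression libraries. Lsd90 was far more abundant, with group means of 72.2 CPM in controls and 24687 CPM under overexpression. Those of the lncRNA were 0.632 and 206 CPM. Whether reads from lsd90 transcripts add to the count of the lncRNA was not tested.

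SPNCRNA.1611 was at 0.299 to 0.869 CPM in controls and reached 158, 150, 185, 182 and 183 CPM under overexpression, a log2 fold change of 8.22 ± 0.14 (SE). It overlaps hhf3, a histone H4 gene, on the opposite strand. Counted features wholly cover hhf3, which was listed at 0 reads in every library. The histone H3 gene hht3, downstream on the same strand, rose by 1.35 ± 0.05 on the log2 scale, far less than the lncRNA.

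Fbp1-ot2 (SPNCRNA.1326), an RNA made upstream of the fructose-1,6-bisphosphatase gene fbp1, was at 0.598, 0.161, 0.610, 0.524 and 0.553 CPM in controls and at 44.7, 29.4, 36.6, 32.0 and 39.5 CPM under overexpression. All 5 overexpression libraries were far above the controls, with a log2 fold change of 6.08 ± 0.19 (SE). Fbp1 is wholly covered by other counted features and was listed at 0 throughout, so it could not be set beside it. SPNCRNA.1324, antisense to fbp1, rose 5.93-fold.

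SPNCRNA.1223 stands back to back with the invertase gene inv1 and rose from 1.22 ± 0.283 to 72.0 ± 12.4 CPM (SD, n = 5 each), by 5.88 ± 0.17 on the log2 scale, next to 5.92 ± 0.18 (SE) for inv1. SPNCRNA.603, back to back with the hexose transporter gene ght3, held 0.449 to 0.673 CPM in controls and 34.1, 44.8, 36.2, 30.8 and 36.4 CPM under overexpression. Its log2 fold change was 5.95 ± 0.16 and that of ght3 7.57 ± 0.18 (SE). SPNCRNA.866, which precedes the α-glucosidase gene agl1 on the same strand, rose by 2.98 ± 0.17, beside 7.97 ± 0.21 (SE) for agl1. These genes were far more abundant than the lncRNAs. Inv1 went from 286 to 17415 CPM, ght3 from 5.52 to 1080 CPM and agl1 from 126 to 31605.5 CPM (group means).

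SPNCRNA.1549, back to back with the glutathione peroxidase gene gpx1, was at 0.15, 0.322, 0.0763, 0.749 and 0.474 CPM in controls and at 10.5, 20.6, 18.8, 19.4 and 18.2 CPM under overexpression. Overexpression replicate 1 was the lowest of its group but still above every control. The log2 fold changes were 5.56 ± 0.32 for the lncRNA and 4.71 ± 0.09 for gpx1 (SE). Gpx1 was far more abundant, with group means of 237 CPM in controls and 6221 CPM under overexpression.

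SPNCRNA.1540, which lies downstream of the small heat shock protein gene hsp16, rose by 1.08 ± 0.23 on the log2 scale, beside 7.75 ± 0.19 (SE) for hsp16. SPNCRNA.811, which overlaps the Hsp70 gene ssa1 on the opposite strand, was at 2.02, 1.61, 0.992, 1.57 and 0.711 CPM in controls and 0.883, 3.17, 3.31, 4.85 and 4.04 CPM under overexpression. Overexpression replicate 1 lay within the controls, while ssa1 rose by 6.04 ± 0.29 (SE). The lncRNA's log2 fold change was 1.23 ± 0.37 (SE, adjusted p = 0.00724, edgeR).

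Of the 8 largest rises among lncRNAs that averaged at least 5 CPM without overlap between the groups, the remaining ones were of SPNCRNA.1304, by 6.65 ± 0.19, and SPNCRNA.828, by 5.33 ± 0.16 (SE) on the log2 scale. SPNCRNA.1304 was near the floor in controls, with 10 reads in all 5 together (0.168 CPM) against 862 under overexpression (18.3 CPM). SPNCRNA.828 went from 2.34 to 97.1 CPM. SPNCRNA.1304 lies back to back with SPBPB21E7.11, which rose by 8.53, and SPNCRNA.828 overlaps SPAC32A11.02c on the opposite strand, which rose by 6.34. All adjusted p-values of these 8 were at or below 5.32e-10 (edgeR). Below that average, SPNCRNA.577 had 3 reads in all 5 controls together (0.0452 CPM) and 335 reads in the overexpression libraries (7.06 CPM), and other features cover 91.3% of it; it was named after its values were seen.

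**Figure D4:**
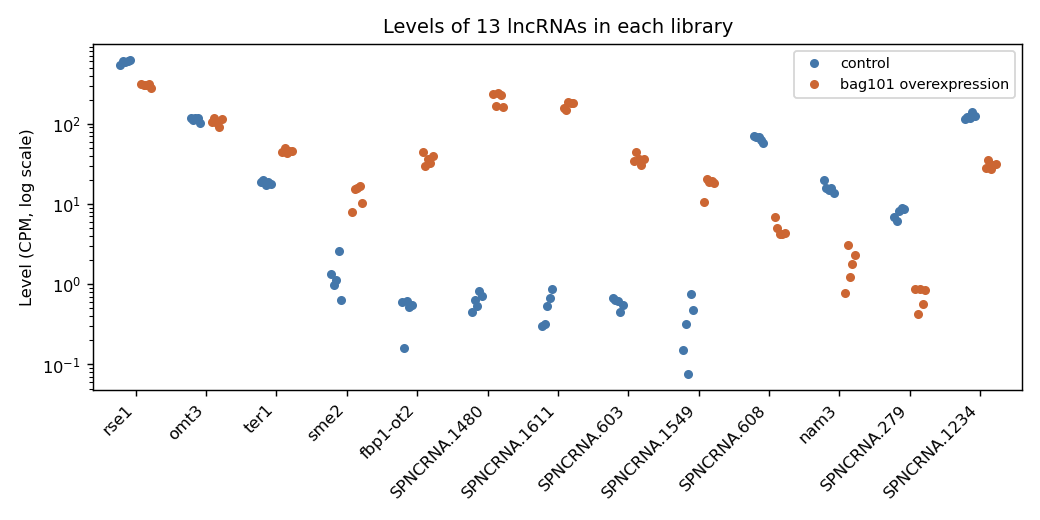
Levels (CPM, log scale) of 13 lncRNAs in each of the 5 control (blue) and 5 overexpression (orange) libraries. Omt3 overlaps between the groups and the other 12 do not; fbp1-ot2 and SPNCRNA.603, for example, lie between 0.161 and 0.673 CPM in controls and between 29.4 and 44.8 CPM under overexpression.

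The neighbours of SPNCRNA.608, the largest fall among lncRNAs that averaged at least 5 CPM, did not share 1 direction. It was at 70.1, 68.6, 67.8, 62.0 and 58.1 CPM in controls and at 6.87, 5.08, 4.20, 4.17 and 4.36 CPM under overexpression. The log2 fold change was -3.71 ± 0.12 (SE, edgeR adjusted p = 2.50e-13), while SPAC11D3.01c, back to back with it, rose by 7.70 ± 0.14 and SPAC11D3.04c, which converges on it, fell by 1.11. It overlaps SPAC11D3.02c and SPAC11D3.03c on the opposite strand. Counted features wholly cover both genes, which were listed at 0 throughout. Other features cover 63.9% of SPNCRNA.608.

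SPNCRNA.279 lies between hry1 and the sulfate permease gene sul2, all on 1 strand. It was at 6.95, 6.12, 8.09, 8.84 and 8.69 CPM in controls and at 0.883, 0.423, 0.883, 0.564 and 0.851 CPM under overexpression, with no overlap between the groups. Sul2, downstream of it, fell by 3.02 ± 0.14, close to the -3.42 ± 0.20 (SE) of the lncRNA, while hry1, upstream of it, rose by 10.42 ± 0.44. Nam3 stands back to back with SPBPB2B2.05, which fell by 3.35 ± 0.15, beside -3.12 ± 0.22 (SE) for nam3.

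SPNCRNA.1234 overlaps nmt1, the thiamine-repressible gene whose promoter is widely used for overexpression in this yeast, on the opposite strand. It stood at 114, 121, 117, 142 and 125 CPM in controls and at 28.1, 35.4, 27.5, 30.5 and 31.5 CPM under overexpression, a 4.04-fold fall. Nmt1, which counted features wholly cover, was listed at 0 reads in every library, and 60.0% of the lncRNA is covered by other features. SPNCRNA.1235, which follows nmt1 on the same strand and overlaps gut2 on the opposite one, fell 2.52-fold. It was at 1.83 to 2.40 CPM in controls, 1.90 CPM in overexpression replicate 2 and 0.532 to 0.677 CPM in the other overexpression libraries. The groups thus overlapped, and other features cover 68.6% of it.

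Other falls named by the rule for lncRNAs that averaged at least 5 CPM were smaller than those of SPNCRNA.608 and nam3. SPNCRNA.933, antisense to the ribosomal protein gene rpl1002, fell 4.53-fold and SPNCRNA.129, which has no match in the annotation, 3.36-fold. SPNCRNA.1156 fell 3.16-fold, SPNCRNA.1096 2.79-fold and SPNCRNA.120 2.75-fold. Each of these was below the lowest control in all 5 overexpression libraries. Below that average, the lowest log2 fold change of the set was that of SPNCRNA.1190, at -4.11 ± 0.33 (SE), with 4.47 CPM in controls and 0.26 CPM under overexpression; it too was named after its values were seen.

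SPNCRNA.1343, back to back with the glycerophosphodiester transporter gene tgp1, rose a little, as tgp1 did. It was at 7.92, 7.41, 7.94, 6.59 and 6.95 CPM in controls and 6.97, 10.9, 9.39, 9.70 and 10.6 CPM under overexpression. The levels overlapped through overexpression replicate 1, and the log2 fold change was 0.37 ± 0.13 (SE, adjusted p = 0.0153, edgeR), lost with upper-quartile factors (adjusted p = 0.203) and library totals. Tgp1 rose by 0.75 ± 0.09. Cti6-antisense-1 (SPNCRNA.1365), on the opposite strand of the cti6 gene, rose by 0.64 ± 0.22 (adjusted p = 0.0155, edgeR), a call also lost under both of these scalings.

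Among the 103 lncRNAs without overlap, those back to back with a coding gene mostly shared its direction where both were called. For these 103, the nearest counted coding gene on each side was taken, at any distance. Non-coding features in between were passed over. Pairs were sorted by orientation after the data had been seen. Here and above, back to back means divergent, that is on opposite strands with the gene on the side where the lncRNA starts. In 81 divergent pairs, over 76 genes, the log2 fold changes of lncRNA and gene correlated at Pearson's r of 0.60 and Spearman's rho of 0.50. Of 55 in which both were called, 41 moved the same way, 24 up and 17 down, and 14 opposite ways. Downstream genes on the same strand gave r = 0.26 over 66 pairs, with 28 of 50 the same way. Convergent genes gave 0.29 over 28 pairs, with 12 of 19 the same way, and upstream genes on the same strand -0.13 over 14 pairs, with 5 of 12. Over all 300 lncRNAs the divergent pairs gave r = 0.43 over 207 pairs, with 84 of 131 (64.1%) the same way, and with only features that overlap nothing in the fit, 26 of 35 divergent and 11 of 14 convergent pairs moved the same way. The difference between orientations was not tested, and the same count for divergent neighbours over all features was not made. Both values of a pair come from the same libraries, and some pairs share a gene, so these are descriptions with no test.

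The divergent pairs that moved together span several pathways. SPNCRNA.989 rose by 3.32 and its neighbour atd1, an aldehyde dehydrogenase gene, by 1.56 on the log2 scale. SPNCRNA.1477 and the ubiquitin ligase gene pub3 rose by 3.30 and 1.74. SPNCRNA.658 and the iron-sulfur scaffold gene isu1 rose by 2.61 and 1.49, and SPNCRNA.1159 and the transaldolase gene tal1 by 1.36 and 1.63.

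Among pairs that fell together, SPNCRNA.1666 and the gene ilv5, of branched-chain amino acid synthesis, fell by 3.09 and 1.65 on the log2 scale. SPNCRNA.160 and the sterol desaturase gene erg31 fell by 2.65 and 1.78, SPNCRNA.472 and the drug transporter gene bfr1 by 1.94 and 1.51, and SPNCRNA.900 and the glutamate synthase gene glt1 by 1.36 and 1.33. Pairs that parted were led by SPNCRNA.721, which fell by 2.31 while SPAC22A12.17c rose by 4.25. These pairs were chosen after their values were seen.

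**Figure D5:**
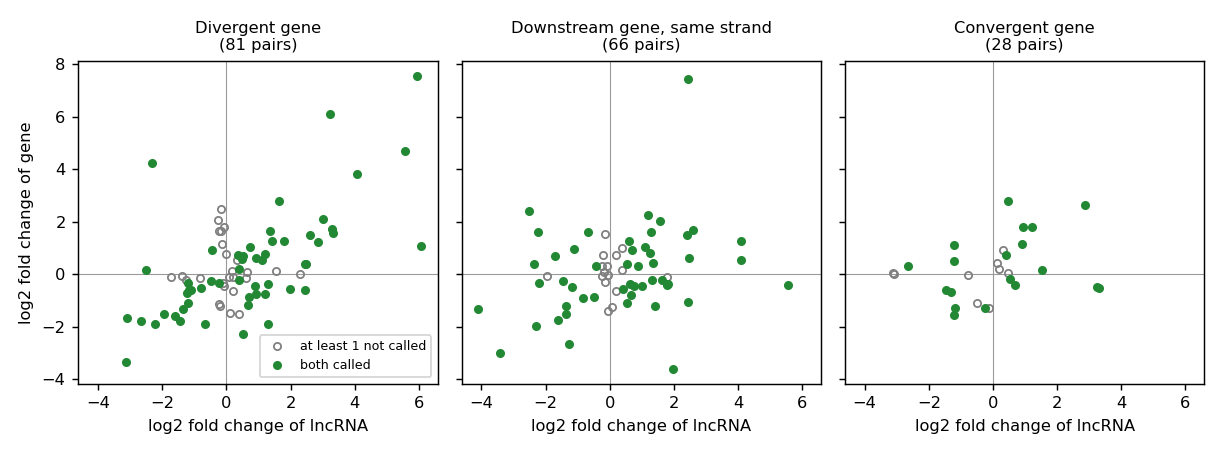
Log2 fold change of the nearest coding gene against that of the lncRNA, for the 103 lncRNAs without overlap, by orientation (81 divergent, 66 downstream and 28 convergent pairs); filled points are pairs in which both were called. Of 55 such divergent pairs, 41 lie in the quadrants of equal direction, against 28 of 50 for downstream genes.

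LncRNAs that overlap a coding gene on the opposite strand gave r = 0.47 with it over 93 pairs, and 44 of 66 pairs with both called moved the same way. Reads of the overlap itself were not counted, so each value comes from the stretches that the 2 features do not share.

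The genes that degrade, terminate or silence such RNAs fell more often than they rose. Of 82 genes listed for nuclear exosome, MTREC, Mmi1, decapping, nonsense-mediated decay, transcription termination, RNA interference and repressive chromatin, 78 were tested, of which 22 rose and 43 fell (median -0.20 on the log2 scale). These are 28.2% and 55.1% of the list, beside 40.4% and 43.2% of all features, and the difference was not tested. With library totals, 11 rose and 59 fell, where 33.0% of the calls over all features were higher.

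Mtl1, the helicase of MTREC, fell from 188 ± 6.49 CPM to 79.9 ± 5.73 CPM (SD over 5 libraries), whereas red5, a zinc finger protein gene of that complex, rose from 77.2 ± 1.83 to 207 ± 16.3 CPM. The exosome cap gene csl4 fell by 1.12, the cytoplasmic exosome helicase gene ski2 by 1.10 and the helicase gene sen1 by 0.96 on the log2 scale. Of the other rises, that of ctf1, a gene of mRNA 3′ end cleavage, was 0.88, that of the exosome ring gene mtr3 0.64 and that of the Dicer gene dcr1 0.77. All of these had adjusted p-values at or below 7.16e-09 (edgeR). The list also holds nrd1, which in fission yeast encodes a regulator of differentiation and not a terminator, and which fell by 1.5 on the log2 scale. The exosome nuclease gene rrp6 and mmi1, named outside the naming rule, fell by 0.38 ± 0.06 and 0.56 ± 0.06 (SE). Red1 and rrp45, also of the list and outside that rule, rose by 0.51 ± 0.06 and 0.77 ± 0.08 (SE).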

How the data were processed

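Total RNA of 10 fission yeast cultures, 5 with a vector and 5 overexpressing bag101, was sequenced. The authors deposited 1 table of raw read counts per feature for each sample, without normalization. Trimmomatic 0.32, STAR 2.3.0e, HTSeq and build ASM294v2 are named, per the submitters' processing notes. The sources used here do not give the annotation release or the strand setting. Rows that name no gene entered neither library sizes nor tests: reads aligned to several places (22.3% to 37.9% of listed reads), ambiguous reads (10.9% to 16.3%) and reads in no feature (0.211% to 0.502%).

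Features that start with SPNCRNA were ranked by counts summed over all libraries and the first 300 kept. The reference at hand is ASM294v3, another build. Names and classes were looked up in it, and overlaps, covered percentages, neighbours and orientations were computed from its positions. These may differ from the annotation used for counting. No sequence was read, and the planned search for promoter motifs was not run, because the builds differ. Of the 7017 features, 169 had no match by identifier or unique synonym.

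The count test was that of edgeR 4.0.16, run in R 4.3.3 (filterByExpr, TMM factors, robust quasi-likelihood F-test, no covariates) over 4681 features, with Benjamini-Hochberg adjustment and a threshold of 0.05. edgeR estimated a common biological coefficient of variation of 0.0869. CPM use library sizes adjusted by TMM, folds are ratios of group means, and each standard error was derived from the F statistic. A count of 0 allows up to 3 reads, or 0.224 to 0.483 CPM, and this limit covers counting error only. The design text calls the samples independent repeats, and p-values measure the spread between these samples. DESeq2 1.42.0, other scalings, filters, a replicate block and leaving out each library were alternatives.

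The set, lists and tests were chosen with earlier results of these data known. Named are the 10 with the most reads, the 8 largest rises and falls that were called, averaged at least 5 CPM and did not overlap between groups, up to 15 with a gene name, the 4 smallest p in each direction with at most 50% covered, those at the boundary, those beside a list of phosphate, stress, sugar and marker genes, their neighbours, and 4 genes of the decay list in each direction.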

Additional observations from a re-analysis of the deposited data

Results flagged for a closer look

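In 7 of 82 groups of 5 libraries, over 41 named lncRNAs, the highest or lowest library stood apart from the others, where chance gives about 1 in 20 groups. Overexpression replicate 1 was the lowest of its group for SPNCRNA.1549, at 10.5 CPM against 18.2 to 20.6 CPM in the others, and for SPNCRNA.828, at 68.5 CPM against 100.5 to 112 CPM. Overexpression replicate 5 was the highest for SPNCRNA.304, at 165 CPM against 146 to 151 CPM, and replicate 2 the highest for SPNCRNA.1235, at 1.90 CPM against 0.532 to 0.677 CPM. Control replicate 2, the library with the fewest reads, was the lowest for fbp1-ot2 (SPNCRNA.1326), at 0.161 CPM against 0.524 to 0.610 CPM, and for SPNCRNA.1540, at 1.77 CPM against 2.84 to 3.21 CPM. Control replicate 5 was the lowest for SPNCRNA.129, at 11.2 CPM against 13.7 to 14.6 CPM.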

How the results depend on the processing

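Across the alternatives, filters changed how many of the set were tested, while scaling and the choice of the set changed the balance of directions. With a filter at 10 CPM only 73 of the 300 were tested, with 43 higher, 17 lower and a median log2 fold change of 0.62. With only features that overlap nothing, 103 were tested, with 54 higher and 31 lower, and 37 genes of the decay list, with 9 higher and 20 lower. Divergent pairs moving the same way then numbered 16 and 26. Library totals turned the median of the set to -0.086 and gave 11 higher genes of the decay list, upper-quartile factors gave a median of 0.079, and sets chosen from the controls or the overexpression libraries alone gave 0.012 and 0.57. Leaving out 1 library at a time gave 138 to 144 higher, 83 to 88 lower, medians of 0.26 to 0.33, 22 to 24 and 40 to 44 genes of the decay list, and 40 to 46 divergent pairs. SPNCRNA.1626, not called, changed sign to -0.15 (upper quartile) and -0.31 (totals, adjusted p = 0.0298, edgeR). Leaving out 1 library gave it -0.042 to 0.13, below 0 without control replicate 1, without control replicate 2 (-0.019) and without overexpression replicate 5 (-0.013). Among named lncRNAs, library totals ended 7 calls and upper-quartile factors 3. Each of these scalings also made omt3 and SPNCRNA.545, which lies just outside the set, pass as lower. With the replicate number as a block, 141 rose and 86 fell, the decay list had 23 higher and 42 lower, the median was 0.27 and 40 divergent pairs moved the same way. The counts of divergent pairs were added after seeing the data. The deviations of same-numbered samples correlated at -0.09 to 0.09, within the -0.13 to 0.14 of differently numbered ones. The numbers thus gave no sign of pairing, and a shared batch was not tested. Of the 100 with the most reads 18 did not pass, of the middle 100 24 and of the last 100 31, where 83.6% of all features tested passed.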
